A study of Mus musculus with 15 samples.

Results

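Bone marrow-derived macrophages (BMDMs) lacking the transcription factors STAT5A and STAT5B were compared with BMDMs that retained them, after both had been exposed to factors secreted by mammary tumor cells. The members were the libraries labelled as STAT5fl/fl or STAT5cKO and treated with 4T1 CM, which are 5 of the 15 libraries of the study. The genes described are the 13005 of 55385 counted genes that had more than 1 CPM (read counts scaled to the size of the library) in at least 2 libraries, apart from collagens and genes induced by IFNγ, which are given only as counts. The labels give BALB/c mice with an age of 6 wk, and all carried floxed Stat5 alleles. STAT5cKO mice (n = 3, numbered 114, 115 and 116) were made by crossing to Csf1r-iCre, in which regulatory sequence of the gene for the M-CSF receptor drives the recombinase. STAT5fl/fl mice (n = 2, numbered 112 and 113) were the controls, and the sources used here do not state whether these also carried a Cre. The study's own quality control removed 1 further STAT5fl/fl replicate. Cells of the same 5 mice were also kept in serum-free DMEM or given 20 ng/mL rmGM-CSF (recombinant mouse GM-CSF), and these 10 libraries serve below as the comparison. Stimulation lasted 2 h. 4T1 CM is serum-free medium conditioned by 4T1 cells, a metastatic mammary tumor line of BALB/c origin. The Csf1r-iCre transgene acts in myeloid cells and was therefore active before stimulation, so effects of STAT5 loss during differentiation and during the 2 h of stimulation cannot be told apart.

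STAT5A and STAT5B are latent cytoplasmic proteins that Janus kinases phosphorylate at cytokine receptors. In macrophages the best known trigger is GM-CSF, whose receptor signals through the common beta chain and JAK2. The phosphorylated dimers enter the nucleus and bind palindromic GAS elements, and among the genes they induce are Cish and the Socs genes, whose products damp signaling at the receptor. STAT5 can also repress genes, and Bcl6 is the standard example.

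The deletion was visible in every library. Stat5a (ENSMUSG00000004043, chromosome 11 from 100859351 to 100885169 of GRCm38) had 44.6 and 38.9 normalized CPM in the STAT5fl/fl libraries and 4 counts in all over the 3 STAT5cKO libraries, a ratio of 675 (95% exact interval 263 to 2479, for counting error only). Stat5b had 67.5 and 77.7 CPM in STAT5fl/fl and 0.0945, 0.189 and 0.0452 CPM in STAT5cKO BMDMs. Library totals with 4T1 CM were 19950352 and 21379480 counts in STAT5fl/fl and 21624565 to 22883108 in STAT5cKO, so that the genotypes did not overlap in depth. Of 10 macrophage markers, all were detected, and their summed level was 29508 to 30501 CPM in STAT5fl/fl and 37537 to 47306 CPM in STAT5cKO libraries, most of it from Lyz2, while Csf1r was not called (log2 fold change -0.02, SE 0.07, adjusted p = 0.879). Defining markers of T cells (Cd3d, Cd3e, Cd3g) and of B cells (Ms4a1, Pax5) were at 0 in all 5 libraries. In bulk RNA a change in the share of a cell type and a change in expression per cell cannot be told apart. Among lists of markers of other cells, the summed level was 1.23 to 2.17 CPM in STAT5cKO against 3.21 to 4.38 CPM in STAT5fl/fl libraries for 10 epithelial genes, 1.65 to 4.59 against 6.91 to 8.46 CPM for 9 mast cell and basophil genes and 7.93 to 8.28 against 10.4 to 10.7 CPM for 10 T and NK cell genes. In these lists only Cdh1, Kit and Cd4 were called, all lower, and each call ended in fits without 1 mouse (adjusted p up to 0.0658, 0.0638 and 0.116), with Cdh1 and Cd4 also not called by DESeq2. In both genotypes these 3 genes also led the sums of their lists. The epithelial genes Esrp1, Krt14, Krt5 and Cldn3 were at 0 in all 5 libraries, as were the mast cell and basophil genes Cpa3, Ms4a2, Tpsb2, Prss34 and Mcpt4. The part of any such cells in the results was not tested. The lists for neutrophils (178 to 191 CPM), dendritic cells (144 to 276 CPM), endothelium (275 to 351 CPM), osteoclasts (289 to 371 CPM), B cells (49.2 to 81.6 CPM) and erythroid cells (1.37 to 2.79 CPM) gave ranges that overlapped between the genotypes, and the neutrophil sum was led by Csf3r. Of the neutrophil genes Elane, Ly6g, Retnlg and Ngp were at 0 in all 5 libraries, Mpo, Ltf and Camp in the STAT5fl/fl libraries only and S100a9 in the STAT5cKO libraries only. One library stood apart: the 4T1 CM library of STAT5cKO mouse 115 lay more than 2-fold above both other STAT5cKO libraries for 16 of 9849 genes with a mean over 5 CPM, against 8 genes for mouse 116 and 0 for mouse 114. Chosen after their values were seen, the clearest were Saa3, an acute-phase protein, with 4.3, 629 and 6.52 CPM in mice 114, 115 and 116, and the chemokine gene Ccl5 with 3.73, 124 and 5.16 CPM. The interferon-stimulated gene Irf7 had 136, 444 and 168 CPM. In the library of mouse 116, Gm42418 had 3530 CPM against 510.6 and 632 in the other STAT5cKO libraries. Several of the results that rest on mouse 115 are given below with and without it, but not all.

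With 4T1 CM, 1001 of the 13005 genes (7.7%) were called between the genotypes at a Benjamini-Hochberg adjusted p-value under 0.01. Adjusted p-values are from edgeR's quasi-likelihood F test over all tested genes, fitted to all libraries unless a mouse is said to be left out, and from limma where mouse is a random effect. Fold changes are STAT5cKO relative to STAT5fl/fl, and SE is the standard error of the log2 fold change. Of these genes 537 (4.13%) were higher in STAT5cKO BMDMs and 464 (3.57%) were lower. The same test called 2.49% of genes with DMEM and 9.8% with rmGM-CSF. Of the 537 genes higher with 4T1 CM, 65 were also called higher with DMEM and 222 with rmGM-CSF. Of the 464 lower genes, 82 and 321 were also called lower. Genes named below and also called higher with DMEM included Fos, Traf1, Tnip3, Cx3cr1, Cd14, Lyz2, Alox5, Slc2a3 and Slc2a6. Those also called lower with DMEM included S1pr1, Ptafr, Tfec, Ccl6, Cd274 and Gpx3. The expression of all 1001 called genes was separated between the genotypes, with no overlap of the libraries, but 39.3% of all tested genes were separated in this way. The median absolute log2 fold change was 0.53 among the genes called higher and 0.53 among those called lower. An absolute log2 fold change over 1 was seen for 94 of the higher and 70 of the lower genes, and over 2 for 11 and 19. The called share grew with abundance, from 1.28% of genes under 1 CPM to 15.9% of genes at 100 CPM or more. Counts of called list members given below are to be read beside these shares, and no list was tested as a set. Of 16 tested collagen genes 1 was called, lower, and of 31 tested genes induced by IFNγ 6 were called, all lower. The IFNγ list had 0 genes called higher and 2 lower without mouse 113. Stat5a, Stat5b, collagens and IFNγ genes aside, the 12 genes of smallest adjusted p in each direction were followed through the fits that leave out 1 mouse, and all 24 kept their call in all 5 such fits. Of the 218 called genes that were on a gene list or leading by p, fold change or difference in CPM, 86 did so. Without STAT5fl/fl mouse 112 there were 316 genes called higher and 285 lower, and without mouse 113 there were 152 and 182, each fit resting on a single control mouse per medium. A fit of the 5 libraries with 4T1 CM alone called 123 genes higher and 157 lower. The 24 leading genes were chosen by adjusted p in these same libraries. Their calls were therefore likely to hold in the fits without 1 mouse, which lend them no independent support.

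**Figure D1:**
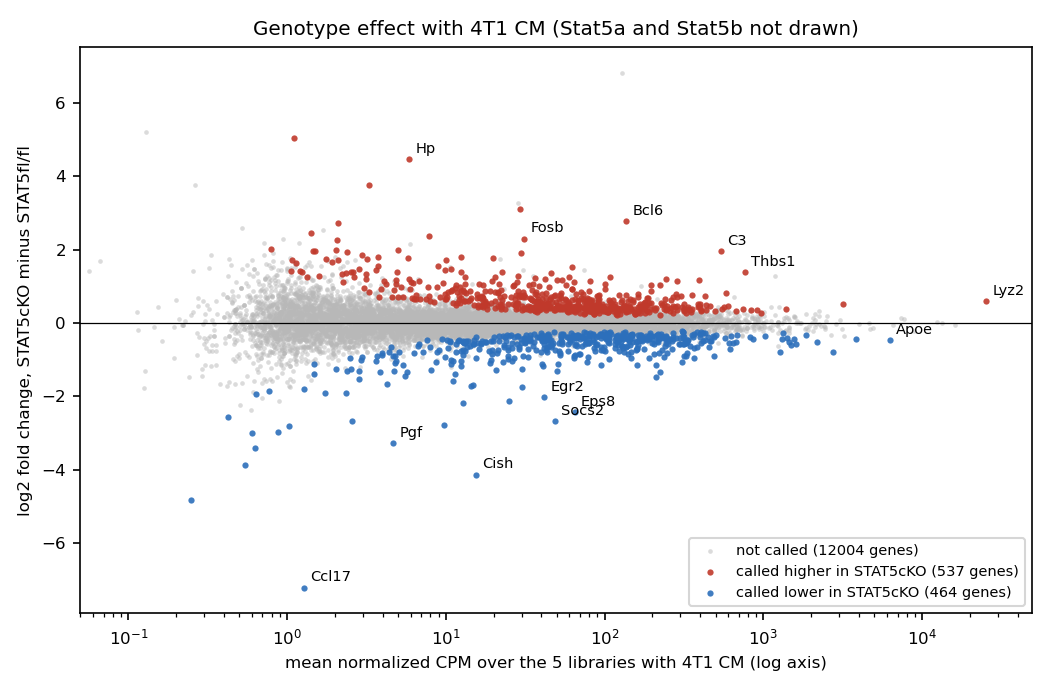
Each point is 1 tested gene, with its mean normalized CPM over the 5 libraries with 4T1 CM on a log horizontal axis and its log2 fold change between STAT5cKO and STAT5fl/fl on the vertical axis. Red points are the 537 genes called higher and blue points those among the 464 called lower other than Stat5a and Stat5b, and most lie within 1 log2 unit of 0, with Cish, Pgf and Ccl17 far below and Bcl6 and Fosb far above.

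Suppressors of cytokine signaling were called only lower. Cish encodes an SH2-domain protein that binds activated cytokine receptors. It had 33 and 38.6 CPM in the STAT5fl/fl and 2.08, 1.98 and 2.04 CPM in the STAT5cKO libraries, or 35.8 ± 3.97 (SD, n = 2) against 2.03 ± 0.0487 (SD, n = 3), with a log2 fold change of -4.13 (SE 0.12, adjusted p = 1.33e-13). Its near relative Socs2, a brake on growth hormone and cytokine receptors, had 79.9 and 117 CPM against 13.5, 15.2 and 17.3 CPM, a log2 fold change of -2.68 (SE 0.14, adjusted p = 1.39e-09). For both genes each STAT5cKO library lay far below the lower of the controls. Socs3, which inhibits receptors of the IL-6 family, showed a smaller difference, from 310.4 and 311 CPM to 212, 214 and 202 CPM (log2 fold change -0.57, SE 0.06, adjusted p = 5.14e-06). Of 8 tested genes of this family 4 were called, all lower, at a median log2 fold change of -0.39 over the list, where all tested genes had a median of 0.01. The fourth was Socs1, with 6.61 and 7.01 CPM against 3.26, 4.39 and 4.16 CPM (log2 fold change -0.79, SE 0.17, adjusted p = 0.00422), and its call ended without mouse 112, 113 or 114 (adjusted p up to 0.0627).

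At the receptors themselves the picture was mixed. Csf2rb, the common beta chain shared by the receptors for GM-CSF, IL-3 and IL-5, was an abundant transcript with 1896 and 1898 CPM in STAT5fl/fl and 1250.2, 1149 and 1318 CPM in STAT5cKO libraries, a log2 fold change of -0.61 (SE 0.07, adjusted p = 1.85e-05). Its mouse-specific paralog Csf2rb2, which pairs with the IL-3 receptor alpha chain, was lower at -0.39 (SE 0.07, adjusted p = 0.00117). Reads may be shared between these near-identical genes. Of 26 tested cytokine receptor genes 3 were called lower and 5 higher. Receptors of IL-1 were among the latter: Il1r1, the signaling receptor, had 19.3 and 13.6 CPM against 28.5, 30.1 and 24.1 CPM (log2 fold change 0.74, SE 0.13, adjusted p = 0.000858), and the decoy receptor Il1r2 had 11.3 and 13.1 against 20.5, 18.8 and 21.3 CPM (log2 fold change 0.73, SE 0.15, adjusted p = 0.00261). Of these 8 receptors only Csf2rb was called in each fit that left out 1 mouse. In the fits without 1 mouse the adjusted p rose to 0.0444 for Csf2rb2, 0.0489 for Il1r1 and 0.0341 for Il1r2. None of the Janus kinases was called, and of the other STAT genes only Stat4 was, higher (log2 fold change 0.81, SE 0.16, adjusted p = 0.00216), a call that ended without mouse 112 or 113 (adjusted p up to 0.0975). The cytokine receptor list had 2 genes called higher and 1 lower without mouse 112, 0 higher and 1 lower without mouse 113 and 2 higher and 3 lower without mouse 116.

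Promoter windows of 3 of the leading genes are shown because they hold the letters of the GAS element, TTCNNNGAA, which reads the same on both strands. Of the 24 leading genes 16 had windows, and in these 16 the element was found for 5 (Cish, Bcl6, Ccl17, Pkib and Ubb) and not for 11. Sequences are from RefSeq on GRCm38.p6 and run from 250 bases before to 50 bases after an annotated start, 5′ to 3′ on the strand of the gene, with each match in capitals.
Cish, chr9:107296409-107296708, plus strand: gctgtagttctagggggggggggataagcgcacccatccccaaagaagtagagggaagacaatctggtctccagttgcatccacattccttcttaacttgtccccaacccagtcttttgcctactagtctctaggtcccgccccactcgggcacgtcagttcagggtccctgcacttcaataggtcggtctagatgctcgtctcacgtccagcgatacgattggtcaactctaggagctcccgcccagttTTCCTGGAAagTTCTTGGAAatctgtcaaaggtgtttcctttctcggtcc
Bcl6, chr16:23981234-23981533, minus strand: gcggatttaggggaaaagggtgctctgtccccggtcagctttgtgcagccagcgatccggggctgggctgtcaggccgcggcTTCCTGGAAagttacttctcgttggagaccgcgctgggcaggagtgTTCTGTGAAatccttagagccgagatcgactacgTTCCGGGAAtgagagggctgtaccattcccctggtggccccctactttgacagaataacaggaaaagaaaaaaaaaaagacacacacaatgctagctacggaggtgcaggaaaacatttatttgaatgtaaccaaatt
Ccl17, chr8:94810203-94810502, plus strand: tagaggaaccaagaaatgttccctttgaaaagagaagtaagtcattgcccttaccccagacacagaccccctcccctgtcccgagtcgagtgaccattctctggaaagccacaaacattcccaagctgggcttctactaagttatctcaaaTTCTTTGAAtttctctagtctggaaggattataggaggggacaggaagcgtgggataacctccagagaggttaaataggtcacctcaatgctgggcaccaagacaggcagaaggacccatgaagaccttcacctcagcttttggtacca
The Cish window holds 2 matches, at bases 251 and 262, the first of which is the annotated start. The Bcl6 window, at an internal start, holds 3 matches, at bases 83, 129 and 163. A second Bcl6 window, at the outer start, holds 1 further match. The Ccl17 window has 1 match at base 152. A window was held for 9348 of the 12995 tested symbols, and the element was in 8.25% of these. It was in 9.29% of the windows' genes called higher (38 of 409) and in 11.5% of those called lower (38 of 331). The stricter form TTCCNGGAA, contained in the first, was in 1.52% of all, 1.96% of the higher and 1.51% of the lower genes. A match of letters is a description and does not show binding.

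Bcl6, a transcriptional repressor of inflammatory and germinal center programs, gave the smallest adjusted p of all genes other than the deleted ones. It had 30.5 and 30.2 CPM in STAT5fl/fl and 203, 198 and 224 CPM in STAT5cKO libraries, a 6.85-fold difference of the means and a log2 fold change of 2.78 (SE 0.08, adjusted p = 9.57e-14). With DMEM the log2 fold change was 0.05 (adjusted p = 0.72), and with rmGM-CSF it was 4.02. The effect with 4T1 CM minus that with DMEM was 2.73 (SE 0.10, adjusted p = 2.3e-11), and minus that with rmGM-CSF it was -1.25 (SE 0.11, adjusted p = 2.31e-06). Several regulators of myeloid identity were lower. Egr2, a zinc finger factor of the early growth response family, fell from 79.5 and 72.4 CPM to 21.8, 17.3 and 16.7 CPM (log2 fold change -2.03, SE 0.10, adjusted p = 5.98e-10). Tfec, a macrophage relative of MITF, was lower at a log2 fold change of -1.39 (SE 0.13, adjusted p = 1.52e-06) and Rara, the retinoic acid receptor alpha, at -0.67 (SE 0.07, adjusted p = 7.12e-06). Of 31 tested lineage transcription factors 4 were called higher and 7 lower, and Bcl6, Tfec and Rara kept their calls without each mouse in turn. The remaining calls of that list, among them Id1 (log2 fold change -1.01, SE 0.16, adjusted p = 0.000359), had adjusted p-values up to 0.136 in at least 1 such fit, and for Id1 it was 0.0328 without mouse 113. The lineage factor list had 1 gene called higher and 2 lower without mouse 113 and 1 higher and 6 lower without mouse 116.

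**Figure D2:**
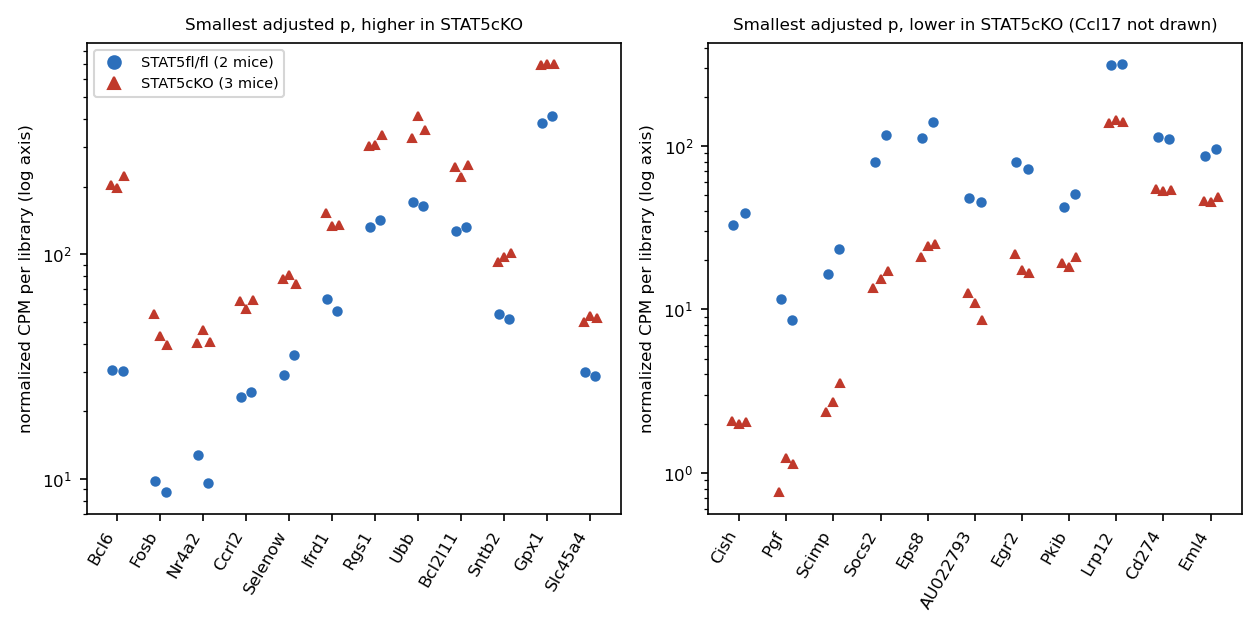
Normalized CPM on a log vertical axis in each of the 5 libraries with 4T1 CM, as blue circles for the 2 STAT5fl/fl and red triangles for the 3 STAT5cKO mice, for the 12 genes of smallest adjusted p called higher (left) and 11 of the 12 called lower (right, without Ccl17, which was at 0 in 2 libraries). For each gene drawn the symbols of the genotypes do not overlap, and the gap is widest for Bcl6 on the left and for Cish on the right.

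Among immediate-early genes, which cells transcribe within minutes of receptor activation, most of those called were higher in STAT5cKO BMDMs. Fosb, a partner in the AP-1 dimer, had 9.78 and 8.72 CPM in STAT5fl/fl and 54.2, 43.3 and 39.5 CPM in STAT5cKO libraries (log2 fold change 2.30, SE 0.15, adjusted p = 3.87e-08). Fos itself had 195 and 224 against 341, 289.9 and 389 CPM (log2 fold change 0.70, SE 0.10, adjusted p = 0.000209), and Fosl1 had 1.36 and 0.928 against 4.49, 4.39 and 3.76 CPM (log2 fold change 1.86, SE 0.26, adjusted p = 5.51e-05). All 3 kept their calls without each mouse. Of 14 tested AP-1 genes 5 were called, all higher, at a median log2 fold change of 0.24 over the list, and Jdp2 and Junb lost theirs in at least 1 such fit (adjusted p up to 0.0562 and 0.0678). The AP-1 list had 3 genes called higher and 0 lower without mouse 113.
The orphan nuclear receptors of the NR4A family followed the same direction. Nr4a2 had 12.8 and 9.65 CPM against 40.2, 46 and 40.7 CPM (log2 fold change 1.91, SE 0.14, adjusted p = 7.35e-08) and Nr4a3 had 8.37 and 7.69 against 25.4, 36.2 and 21.4 CPM (log2 fold change 1.78, SE 0.19, adjusted p = 7.33e-06). Nr4a1, the most abundant, was higher at a log2 fold change of 0.76 (SE 0.14, adjusted p = 0.00105), with an adjusted p of 0.0183 without mouse 112. Of 17 tested EGR, NR4A and KLF genes 5 were called higher and 2 lower, so that Egr3, higher at a log2 fold change of 1.06 (SE 0.15, adjusted p = 0.000156), and Egr2 moved in opposite directions within 1 family. Feedback inhibitors of MAP kinases were called in 4 of 15 cases, all higher. Dusp5, a nuclear ERK phosphatase, had 53.8 and 68.3 CPM against 137, 115 and 131 CPM (log2 fold change 1.06, SE 0.10, adjusted p = 2.33e-06), and Dusp1 had 80.2 and 80.6 against 128, 114 and 134 CPM (log2 fold change 0.64, SE 0.09, adjusted p = 8.41e-05). These calls held in each fit without 1 mouse, whereas Dusp4 and Spred2 reached adjusted p-values up to 0.165 and 0.0262. The MAPK feedback list had 2 genes called higher and 0 lower without mouse 113.

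Regulators of G protein signaling and their receptors changed in both directions. Rgs1, a GTPase-activating protein that shortens chemokine receptor signals, rose from 133 and 143 CPM to 302, 307 and 341 CPM (log2 fold change 1.20, SE 0.08, adjusted p = 3.06e-08). S1pr1, the sphingosine-1-phosphate receptor that guides cell egress, fell from 423 and 479 to 230.0, 216 and 275 CPM (log2 fold change -0.91, SE 0.09, adjusted p = 4.68e-06). Ptafr, the receptor of platelet-activating factor, had 179 and 148 against 116, 93.5 and 105 CPM (log2 fold change -0.64, SE 0.09, adjusted p = 7.62e-05), and the UDP receptor P2ry6 had 489 and 533 against 386, 362 and 369 CPM (log2 fold change -0.46, SE 0.07, adjusted p = 0.000153). Of 33 tested genes 5 were called higher and 6 lower, and only these 4 kept the call without each mouse. In that list C3ar1, a receptor for complement fragment C3a, was lower at a log2 fold change of -0.43 (SE 0.06, adjusted p = 0.000163) and the prostaglandin E2 receptor Ptger4 at -0.57 (SE 0.09, adjusted p = 0.000571), with adjusted p-values of 0.0103 and 0.0114 without mouse 113. Pkib, an inhibitor of cyclic AMP-dependent kinase, had 42.1 and 51.1 CPM in STAT5fl/fl and 19.2, 18.3 and 21 CPM in STAT5cKO libraries (log2 fold change -1.26, SE 0.09, adjusted p = 1.09e-07). The G protein list had 2 genes called higher and 3 lower without mouse 113.

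Chemokine genes were called in 1 direction. Of 20 tested genes for CC and CXC chemokines 10 were called, all lower, and the median log2 fold change of the list was -0.59. Without each mouse in turn between 7 and 9 were called lower, and 1 higher without mouse 114. Ccl17, a ligand of CCR4 that draws T cells, had 3.75 and 2.63 CPM in the STAT5fl/fl libraries (128 counts) and 1 count in all over the STAT5cKO libraries, a ratio of 206 with a 95% exact interval of 36.4 to 8218 for counting error (adjusted p = 3.25e-08). Ccl6 was far more abundant, with 303 and 361 CPM against 169, 186 and 166 CPM (log2 fold change -0.93, SE 0.11, adjusted p = 2.52e-05). Cxcl3, a neutrophil attractant, went from 3.21 and 2.99 to 0.615, 1.09 and 0.769 CPM (log2 fold change -1.91, SE 0.32, adjusted p = 0.000424), and Ccl12, a ligand of CCR2, from 1.51 and 2.73 to 0.236, 0.33 and 0.317 CPM (log2 fold change -2.81, SE 0.48, adjusted p = 0.000574). The CCR2 ligands Ccl2 and Ccl7, which were also on the list of genes induced by IFNγ, were lower at log2 fold changes of -1.75 and -2.17 (adjusted p = 3.08e-06 and 6.62e-07). Calls of Ccl3 and Ccl4 and of Cxcl2 and Pf4 ended in at least 1 fit without a mouse (adjusted p up to 0.0871, 0.032, 0.0417 and 0.268). Ccl3 was not called with mouse as a random effect either (adjusted p = 0.0133). The chemokine receptors were split. Ccrl2, an atypical receptor that presents chemerin without signaling, rose from 23.2 and 24.3 CPM to 61.8, 57.3 and 62.9 CPM (log2 fold change 1.35, SE 0.08, adjusted p = 7.57e-09), and the fractalkine receptor Cx3cr1 from 139 and 133 to 246, 273 and 324 CPM (log2 fold change 1.04, SE 0.13, adjusted p = 4.95e-05). Ccr1 fell from 126 and 122 to 64.5, 80.6 and 80.7 CPM (log2 fold change -0.72, SE 0.08, adjusted p = 1.73e-05).

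Several receptors and opsonins for the uptake of coated or dying material were lower. Fcgr2b, Fcgr3, C1qb and C1qc were also called lower with DMEM and with rmGM-CSF, so their difference was not particular to 4T1 CM. Fcgr2b, the inhibitory Fc receptor for IgG, had 293 and 411 CPM in STAT5fl/fl and 117, 159 and 143 CPM in STAT5cKO libraries (log2 fold change -1.33, SE 0.13, adjusted p = 3.08e-06), and its activating counterpart Fcgr3 had 611 and 745 against 356, 330.1 and 395 CPM (log2 fold change -0.91, SE 0.10, adjusted p = 1.04e-05). C1qb, a chain of the first complement component, had 387 and 487 against 219, 254 and 224 CPM (log2 fold change -0.91, SE 0.11, adjusted p = 2.97e-05). Of 17 tested Fc receptor and complement genes 6 were called lower and 2 higher, with a median log2 fold change of -0.28, and the 3 genes just named kept their calls without each mouse. The other C1q chains, C1qa and C1qc, were lower at log2 fold changes of -0.82 and -0.54, with adjusted p-values up to 0.0183 and 0.039.
The 2 complement genes called higher were C3 and Cfp, which encodes properdin. C3 had 230.4 and 169 CPM in STAT5fl/fl libraries and 355, 1536 and 428 CPM in STAT5cKO libraries. Mouse 115 stood far above the others. The log2 fold change of 1.95 (SE 0.42, adjusted p = 0.00427) became 0.97 (adjusted p = 0.000125) without mouse 115, and the C3 call ended without mouse 112 or 113 (adjusted p = 0.0422 and 0.121). Cfp was higher at a log2 fold change of 0.75 (SE 0.14, adjusted p = 0.00143), a call lost without mouse 112 or 113 (adjusted p up to 0.0517). The Fc receptor and complement list had 0 genes called higher and 5 lower without mouse 112 and 0 higher and 3 lower without mouse 113.
C-type lectins divided by gene. Of those named here, Mrc1 was also called lower, and Clec4e higher, with DMEM and with rmGM-CSF. Mrc1, the mannose receptor CD206, fell from 295 and 387 to 134, 138 and 94.8 CPM (log2 fold change -1.48, SE 0.20, adjusted p = 8.53e-05, and 0.0101 without mouse 113), and Clec7a, the beta-glucan receptor Dectin-1, was lower at a log2 fold change of -0.48 (SE 0.08, adjusted p = 0.000365), with an adjusted p of 0.0109 without mouse 113. Clec4e, the glycolipid receptor Mincle, rose from 120.0 and 121 to 202, 277 and 254 CPM (log2 fold change 1.02, SE 0.12, adjusted p = 1.74e-05), and 3 further members of the 14 tested were called higher, though not in every fit without 1 mouse. Among lipid receptors, the fatty acid transporter Cd36 had 406 and 488 against 246, 205 and 185 CPM (log2 fold change -1.08, SE 0.15, adjusted p = 0.000107, and 0.0119 without mouse 113), while the oxidized LDL receptor Olr1 had 29.5 and 29.1 against 61.7, 123 and 69.3 CPM (log2 fold change 1.53, SE 0.24, adjusted p = 0.0003). Olr1 was lost without mouse 112 or 113 (adjusted p up to 0.03). The lectin list had 1 gene called higher and 2 lower without mouse 112 and 1 higher and 0 lower without mouse 113.

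Genes of toll-like receptor signaling were called in both directions and NF-κB feedback genes only higher. Tlr4, the endotoxin receptor, had 306 and 294 CPM against 177, 233 and 205 CPM (log2 fold change -0.55, SE 0.09, adjusted p = 0.000375), whereas its coreceptor Cd14 had 2657 and 2383 against 3379, 3948 and 3417 CPM (log2 fold change 0.51, SE 0.08, adjusted p = 0.000364), a call lost without mouse 113 (adjusted p = 0.0216). Of 23 tested genes of toll-like receptor signaling 3 were called higher and 2 lower. Scimp, a transmembrane adaptor of toll-like receptor and MHC class II signaling, fell from 16.4 and 23.6 to 2.36, 2.69 and 3.53 CPM (log2 fold change -2.79, SE 0.19, adjusted p = 6.04e-08). Of 18 tested NF-κB subunits and feedback genes 5 were called, all higher, and between 3 and 8 were called without each mouse. Nfkbie, which encodes the inhibitor IκBε, had 96.1 and 95.1 CPM in STAT5fl/fl and 166, 158 and 163 CPM in STAT5cKO libraries (log2 fold change 0.76, SE 0.07, adjusted p = 2.12e-06). Traf1, an adaptor of TNF receptors, was higher at a log2 fold change of 0.92 (SE 0.10, adjusted p = 7.38e-06) and Tnip3, which encodes a partner of the ubiquitin editor A20, at 0.78 (SE 0.09, adjusted p = 2.52e-05). Bcl3 and Birc3 made up the rest, with adjusted p-values up to 0.0274 and 0.0439 in fits without 1 mouse. The toll-like receptor list had 1 gene called higher and 2 lower without mouse 112 and 0 higher and 1 lower without mouse 113.
On the T cell side, Cd274, which encodes the checkpoint ligand PD-L1, fell from 113 and 110.4 CPM to 54.4, 53 and 54.1 CPM (log2 fold change -1.06, SE 0.08, adjusted p = 1.23e-07). H2-DMa, a chaperone of peptide loading on MHC class II, had 114 and 118 against 58.5, 70.8 and 75.2 CPM (log2 fold change -0.76, SE 0.11, adjusted p = 0.00012) and was the only 1 of 10 tested MHC class II genes to be called. Of these 10 genes 9 had a negative log2 fold change, and the list median was -0.57, where all tested genes had 0.01. That list median was -0.26 without mouse 112 and -0.79 without mouse 113.

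Genes of the BCL2 family, which set the threshold for cell death, were called in both directions. Bcl2l11, which encodes the pro-apoptotic BH3-only protein BIM, rose from 127 and 133 CPM to 245, 221 and 249.8 CPM (log2 fold change 0.88, SE 0.08, adjusted p = 8.65e-07). Pmaip1, which encodes NOXA of the same class, had 13.3 and 11.8 against 22.6, 23.1 and 24 CPM (log2 fold change 0.88, SE 0.11, adjusted p = 4.38e-05). The pro-survival genes Bcl2a1b and Bcl2a1d fell, with 16.6 and 20.4 against 5.86, 5.9 and 6.61 CPM (log2 fold change -1.59, SE 0.16, adjusted p = 4.68e-06) and 17.7 and 19.5 against 7.66, 8.92 and 8.05 CPM (log2 fold change -1.18, SE 0.13, adjusted p = 8.34e-06). These A1 paralogs are nearly identical, and how reads divide among them is uncertain. Bcl2l1, which encodes BCL-XL, was lower at a log2 fold change of -0.44 (SE 0.08, adjusted p = 0.00143), with adjusted p-values of 0.031 and 0.0136 without mouse 113 or 115. Of 23 tested BCL2 and PIM genes 3 were called higher and 4 lower. Of 19 tested p53 targets 4 were called, all higher, at a list median of 0.36. Mdm2, the ubiquitin ligase of p53, had 293 and 206 against 444, 428 and 406 CPM (log2 fold change 0.77, SE 0.11, adjusted p = 0.000148), with the controls further apart than the STAT5cKO libraries. It and Pmaip1, which is on both lists, held their calls without each mouse. Of 28 cell cycle genes edgeR called 0, with a list median of 0.11 that turned to -0.18 without mouse 115 and to -0.07 without mouse 113. The BCL2 and PIM list had 2 genes called higher and 2 lower without mouse 113 or 115.

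Antagonists of MYC were higher as well. MXD1, MXI1 and MNT compete with MYC for MAX. Mxd1 had 9.97 and 9.8 CPM in STAT5fl/fl and 19.9, 19.7 and 21.9 CPM in STAT5cKO libraries (log2 fold change 1.05, SE 0.10, adjusted p = 1.98e-06), Mnt was higher at a log2 fold change of 0.72 (SE 0.09, adjusted p = 2.41e-05) and Mxi1 at 0.47 (SE 0.07, adjusted p = 0.000227). All 3 kept their calls without each mouse. Of 18 tested genes for MYC, MXD proteins and cyclins 4 were called higher and 1 lower. The MYC and MXD list had 3 genes called higher and 0 lower without mouse 112.

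Antioxidant selenoproteins were called mainly higher. Gpx1, the cytosolic glutathione peroxidase, had 382 and 412 CPM against 694, 704 and 699.8 CPM (log2 fold change 0.82, SE 0.07, adjusted p = 8.06e-07), with STAT5cKO libraries within a few CPM of each other. Selenow, a small redox protein, rose from 29 and 35.5 to 77.6, 80.6 and 73.7 CPM (log2 fold change 1.26, SE 0.09, adjusted p = 6.32e-08), and Selenom of the endoplasmic reticulum from 21.1 and 24.5 to 39.7, 37.2 and 35.3 CPM (log2 fold change 0.72, SE 0.12, adjusted p = 0.000413). The secreted peroxidase Gpx3 went the other way, from 141 and 161 to 83.8, 53.4 and 93.2 CPM (log2 fold change -0.97, SE 0.16, adjusted p = 0.000515), a call lost without mouse 113 (adjusted p = 0.0338). Of 17 tested genes 4 were called higher and 1 lower, and the fourth of the higher ones, glutathione synthetase Gss, was lost without 4 of the 5 mice (adjusted p up to 0.109). Gpx1 and Selenow differed to the same side with DMEM, by log2 fold changes of 0.97 and 1.27 (adjusted p = 4.36e-07 and 3.41e-07). Of 18 NRF2 targets only Srxn1 was called, higher (log2 fold change 0.46, SE 0.08, adjusted p = 0.000702), and not without mouse 112 or 113 (adjusted p up to 0.0351). The selenoprotein list had 3 genes called higher and 0 lower without mouse 113.

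Secreted growth factors were called in both directions, and members of the matrix protease and matricellular lists only higher. Plau, a protease that was lower, was counted with the growth factors. Pgf, which encodes placental growth factor of the VEGF family, fell from 11.5 and 8.67 CPM to 0.756, 1.23 and 1.13 CPM (log2 fold change -3.28, SE 0.21, adjusted p = 2.75e-08). Vegfa itself had 217 and 212 against 383, 322 and 371 CPM (log2 fold change 0.74, SE 0.13, adjusted p = 0.00109), with adjusted p-values of 0.0151 and 0.0282 without mouse 112 or 113. Thbs1, the matricellular protein thrombospondin 1, rose from 421 and 361 CPM to 904, 1136 and 1011 CPM (log2 fold change 1.38, SE 0.14, adjusted p = 3.34e-06), a 2.6-fold difference of the means that held without each mouse. Plau, the urokinase plasminogen activator, had 491 and 488 against 337, 267 and 325 CPM (log2 fold change -0.66, SE 0.11, adjusted p = 0.000547). Adam17, the sheddase of TNF, was higher at a log2 fold change of 0.44 (SE 0.06, adjusted p = 7.82e-05) and was called in all fits without 1 mouse. Mmp9, which encodes gelatinase B, had 2.38 and 2.11 CPM in STAT5fl/fl and 9.64, 17.7 and 7.51 CPM in STAT5cKO libraries (log2 fold change 2.36, SE 0.37, adjusted p = 0.0003). The library of mouse 115 was again the highest for Mmp9, and without it the log2 fold change was 1.92 (adjusted p = 0.000354), while the call ended without mouse 112 or 113 (adjusted p up to 0.0202). Tgfb3 rose from 18.1 and 20.1 to 33.8, 36.7 and 33.3 CPM (log2 fold change 0.86, SE 0.10, adjusted p = 1.63e-05), and Tgfb1 was lower at a log2 fold change of -0.28 (SE 0.06, adjusted p = 0.00456), a call that was lost in each of the 5 fits without 1 mouse (adjusted p up to 0.109).
Of 21 tested matrix proteases and inhibitors 3 were called, all higher, and of 18 matricellular and matrix proteins 5, all higher, with a list median of 0.47. Summed over 14 fibroblast markers, the level was 6.42 to 7.94 CPM in STAT5fl/fl and 10.2 to 17.3 CPM in STAT5cKO libraries, and its part in these results was not tested. Of 3 tested fibroblast markers 0 were called with all mice, and 2, both higher, without mouse 115. Semaphorins and other guidance genes were called in 6 of 18 cases, all higher. Among them were Sema4a with 11.1 and 12 against 20.4, 39.7 and 30.3 CPM (log2 fold change 1.38, SE 0.22, adjusted p = 0.000344) and Sema4d with 397 and 348 against 504, 503 and 541 CPM (log2 fold change 0.47, SE 0.08, adjusted p = 0.000633). Each of the 6 lost its call in at least 1 fit without a mouse (adjusted p up to 0.0151 for Sema4a and 0.0486 for Sema4d). The protease list had 1 gene called higher and 0 lower without mouse 113 and 5 higher and 0 lower without mouse 114. The matricellular list had 2 genes called higher and 0 lower without mouse 112, 1 higher and 0 lower without mouse 113 and 3 higher and 0 lower without mouse 115. The semaphorin list had 2 genes called higher and 0 lower without mouse 112 and 1 higher and 0 lower without mouse 113.

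Further leading genes, which were on none of the lists, are given one by one. Eps8, an adaptor that caps and bundles actin filaments, fell from 113 and 141 CPM to 20.9, 24.4 and 25.1 CPM (log2 fold change -2.43, SE 0.14, adjusted p = 7.57e-09). Enah, which promotes actin filament elongation, had 5.25 and 5.16 against 0.804, 0.614 and 0.995 CPM (log2 fold change -2.68, SE 0.24, adjusted p = 1.21e-06). Eml4, a microtubule-binding protein, went from 87.1 and 95.4 to 46.3, 45.2 and 48.5 CPM (log2 fold change -0.97, SE 0.07, adjusted p = 3.87e-08). Scin, an actin-severing protein, was higher, with 0.632 and 0.309 against 2.32, 3.97 and 3.21 CPM (log2 fold change 2.72, SE 0.35, adjusted p = 3.09e-05), and Sntb2, a syntrophin adaptor of the dystrophin complex, had 54.4 and 51.7 against 92.6, 97.5 and 102 CPM (log2 fold change 0.87, SE 0.08, adjusted p = 8.65e-07). These 5 calls held without each mouse. Acta2, smooth muscle actin, was present at 0.146 and 0.619 CPM and 2.46, 1.37 and 2.44 CPM (log2 fold change 2.46, SE 0.44, adjusted p = 0.000948), and its call ended without mouse 112 (adjusted p = 0.0363). Emp1, a small membrane protein of high abundance, fell from 1670.2 and 1707 to 972, 985 and 985 CPM (log2 fold change -0.78, SE 0.07, adjusted p = 1.12e-06).

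Lrp12, a member of the LDL receptor family, and AU022793, a gene without a descriptive name, lie side by side on opposite strands and both fell. Lrp12 (chromosome 15 from 39870589 to 39943994 of GRCm38, minus strand) had 312 and 318 CPM in STAT5fl/fl and 139, 145 and 139.7 CPM in STAT5cKO libraries (log2 fold change -1.16, SE 0.07, adjusted p = 1.58e-08). AU022793 (chromosome 15 from 39962649 to 39967024, plus strand) had 48.1 and 45.4 against 12.6, 11 and 8.64 CPM (log2 fold change -2.13, SE 0.12, adjusted p = 7.57e-09). Counting used the strand of the gene, so each value belongs to its own strand.
Ifrd1, a transcriptional coregulator, rose from 63 and 56.1 CPM to 153, 134 and 136 CPM (log2 fold change 1.24, SE 0.07, adjusted p = 1.06e-08), and Slc45a4, a solute carrier, from 29.9 and 28.9 to 50.2, 53 and 51.9 CPM (log2 fold change 0.82, SE 0.07, adjusted p = 8.65e-07). Ubb, which encodes polyubiquitin, had 170.4 and 164 against 330.1, 413 and 358 CPM (log2 fold change 1.13, SE 0.10, adjusted p = 7.73e-07). Gm1821, annotated as a transcribed pseudogene of Ubb, had 1.51 and 9.03 against 64.1, 36.2 and 35.2 CPM (log2 fold change 3.12, SE 0.64, adjusted p = 0.00304), and reads may be shared between the pair. Gm1821 lost its call without mouse 112 or 113 (adjusted p up to 0.0653) and with mouse as a random effect (adjusted p = 0.0217).

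The genotype effects of Ptgs2 and Nfil3 had opposite directions with 4T1 CM and with rmGM-CSF. Ptgs2, which encodes cyclooxygenase 2, had 16.8 and 16.2 CPM in STAT5fl/fl and 30.9, 35 and 33.7 CPM in STAT5cKO libraries with 4T1 CM (log2 fold change 1.0, SE 0.09, adjusted p = 1.84e-06), but was lower in STAT5cKO BMDMs with rmGM-CSF (log2 fold change -0.75, adjusted p = 5.25e-06). Alox5, the 5-lipoxygenase of leukotriene synthesis, rose from 10.7 and 10.4 to 16.9, 22.8 and 25.2 CPM (log2 fold change 1.04, SE 0.14, adjusted p = 8.21e-05), and Pla2g15, a lysosomal phospholipase, fell from 271 and 319 to 158, 173 and 176 CPM (log2 fold change -0.81, SE 0.08, adjusted p = 3.99e-06). Of 15 tested genes of prostaglandin and leukotriene metabolism 3 were called higher and 2 lower. Nfil3, a repressor that also acts in the clock, had 84 and 100.2 against 131, 124 and 126 CPM with 4T1 CM (log2 fold change 0.47, SE 0.09, adjusted p = 0.00171, and 0.0326 without mouse 112), yet was lower with rmGM-CSF at a log2 fold change of -1.83 (adjusted p = 2.47e-09). Per1, a core repressor of the clock, was higher at a log2 fold change of 0.77 (SE 0.09, adjusted p = 2.5e-05), and 3 of 17 tested clock genes were called, all higher. The prostaglandin and leukotriene list had 2 genes called higher and 1 lower without mouse 112, 113 or 116. The clock list had 1 gene called higher and 0 lower without mouse 112.

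Glycolysis and sterol synthesis were examined as metabolic lists. Of 19 glycolysis genes 1 was called, Pfkfb3, an activator of the pathway (log2 fold change 0.50, SE 0.11, adjusted p = 0.0038, up to 0.0449 without a mouse). The glucose transporters Slc2a3 and Slc2a6 were higher at a log2 fold change of 0.72 (SE 0.09, adjusted p = 2.71e-05) and 0.77 (SE 0.08, adjusted p = 5.59e-06). Of 27 tested genes of cholesterol and fatty acid synthesis 0 were called by edgeR, although 25 had a negative log2 fold change and the list median was -0.30. This list turned on 1 library. Hmgcs1, the first committed enzyme of the mevalonate pathway, had 164 and 136 CPM in STAT5fl/fl libraries and 90.8, 165 and 84.1 CPM in STAT5cKO mice 114, 115 and 116. Fdft1, squalene synthase, had 37.9 and 29 and 18, 39.6 and 12.6 CPM, and Cyp51, which demethylates lanosterol, 107 and 87.3 and 55.3, 102 and 44.8 CPM. In each case mice 114 and 116 lay below both controls and mouse 115 lay at or just above the level of the controls. With mouse 115 left out, 16 of the 27 genes were called, all lower, and the list median was -0.64. In that fit the log2 fold change was -0.78 for Hmgcs1 (adjusted p = 0.000103), -1.13 for Fdft1 (adjusted p = 0.00077) and -0.95 for Cyp51 (adjusted p = 0.000344). Leaving out any other mouse called 0 of them.

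Of 15 inflammatory cytokines 2 were called higher and 1, Tgfb1, lower, and Clcf1, a cytokine of the IL-6 family, had 1.36 and 1.65 against 4.3, 4.77 and 6.52 CPM (log2 fold change 1.79, SE 0.25, adjusted p = 8.55e-05) and was called in each fit without 1 mouse. Il10, an anti-inflammatory cytokine, was near the detection limit with 0.292 and 0.722 against 1.8, 1.27 and 1.63 CPM (log2 fold change 1.63, SE 0.37, adjusted p = 0.00701), and its call was lost in each such fit (adjusted p up to 0.102). The inflammatory cytokine list had 1 gene called higher and 0 lower without mouse 112, 113, 114, 115 or 116.
Of 18 growth factors 2 were called higher and 4 lower, and of the latter Pdgfa had 199 and 195 against 150.3, 128 and 156 CPM (log2 fold change -0.44, SE 0.10, adjusted p = 0.00429, up to 0.0502 without a mouse). Of 20 costimulatory and checkpoint genes 2 were called lower, Cd274 and Cd200r1 (log2 fold change -0.53, SE 0.10, adjusted p = 0.00119, and 0.0626 without mouse 113), and the poliovirus receptor gene Pvr was called higher (log2 fold change 0.64, SE 0.09, adjusted p = 7.62e-05, and 0.0105 without mouse 113). The growth factor list had 1 gene called higher and 1 lower without mouse 112 or 113. The checkpoint list had 0 genes called higher and 1 lower without mouse 113 and 3 higher and 3 lower without mouse 115.
Of 22 integrin and adhesion genes 3 were called higher, led by Itga4 with 131 and 103 against 176, 210.2 and 190.2 CPM (log2 fold change 0.72, SE 0.10, adjusted p = 0.000101, and 0.0122 without mouse 113), and 3 lower. Of 20 lipid handling genes 1 was called higher, Olr1, and 5 lower, and of 19 HIF targets 4 were called higher and 1 lower. Of 20 genes of the ATF4 response to amino acid stress 3 were called higher, and Ddit4, an inhibitor of mTORC1, had 2.58 and 2.42 against 6.62, 6.89 and 6.15 CPM (log2 fold change 1.39, SE 0.19, adjusted p = 7.84e-05) in a call that held without each mouse. The adhesion list had 0 genes called higher and 0 lower without mouse 113 and 2 higher and 1 lower without mouse 115. The lipid handling list had 0 genes called higher and 2 lower without mouse 112 and 0 higher and 0 lower without mouse 113. The HIF list had 2 genes called higher and 1 lower without mouse 112 or 116 and 1 higher and 0 lower without mouse 113. The ATF4 list had 1 gene called higher and 0 lower without mouse 112, 113 or 115.
Of 21 solute carriers 5 were called higher and 1 lower, and of 24 genes of TGFβ and BMP signaling 3 were called higher and 1 lower. Of 16 mRNA decay regulators 2 were called higher and 3 lower, among the latter Zfp36l1 with 157 and 182 against 97.6, 105 and 115 CPM (log2 fold change -0.68, SE 0.10, adjusted p = 0.000243, and 0.0222 without mouse 113). Of 30 ribosome biogenesis genes 1 was called higher and 2 lower, where 4.13% of all tested genes were called higher and 3.57% lower. Of 19 polarization markers 5 were called lower (Egr2, Ccl17, Socs3, Mrc1 and Fcrls) and 1 higher (Fpr2), and these genes also stand on other lists above. Arg1 was not called with all mice but was called lower without mouse 115 (log2 fold change -2.72, adjusted p = 0.00117). The solute carrier list had 2 genes called higher and 1 lower without mouse 113. The TGFβ list had 1 gene called higher and 0 lower without mouse 112 or 113. The mRNA decay list had 0 genes called higher and 0 lower without mouse 113 and 2 higher and 1 lower without mouse 114. The ribosome biogenesis list had 1 genes called higher and 0 lower without mouse 112, 113, 115 or 116. The polarization list had 0 genes called higher and 3 lower without mouse 113.

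**Figure D3:**
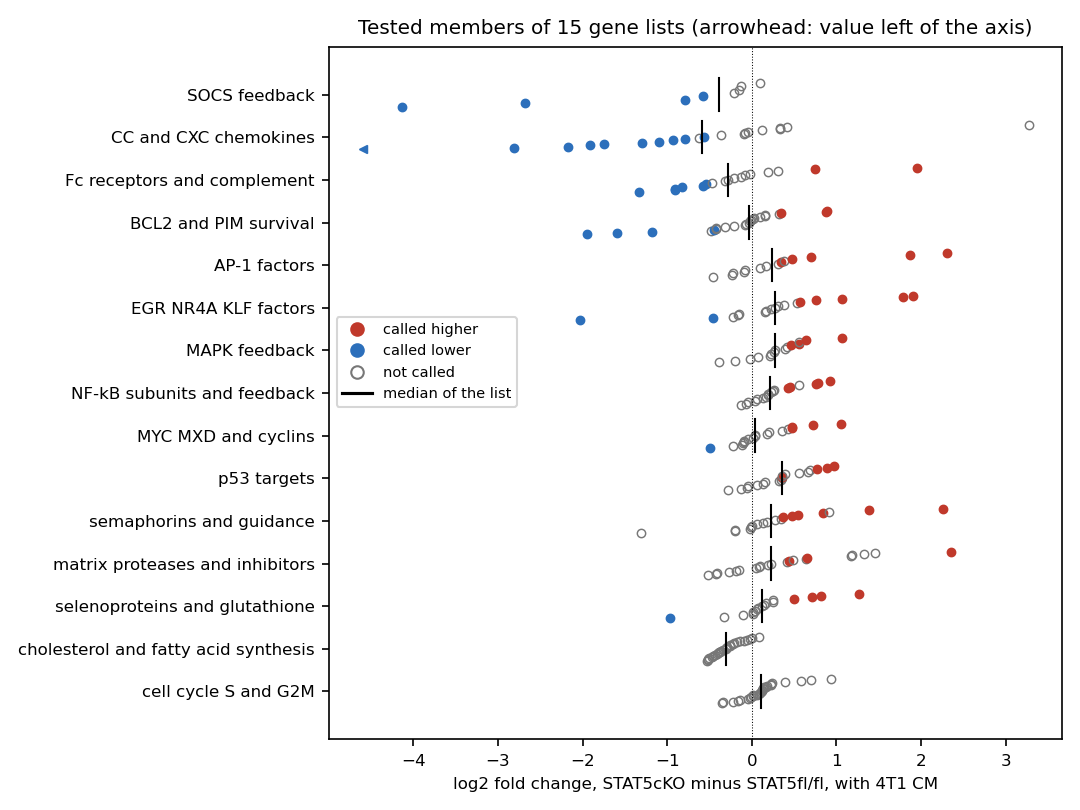
Log2 fold change between STAT5cKO and STAT5fl/fl with 4T1 CM for the tested members of 15 gene lists, 1 point per gene, with called genes filled in red (higher) or blue (lower), uncalled genes open, and a bar at the median of each list. Called members of the SOCS and chemokine lists all lie left of 0 and those of the AP-1, MAPK feedback and NF-κB lists all right of it, while 25 of 27 members of the cholesterol list lie left of 0 with 0 called when all mice are used. The open point far right among the chemokines is Ccl5, high in mouse 115 alone of the STAT5cKO mice, and Ccl17 is drawn as an arrowhead.

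The largest differences in CPM were in a few very abundant transcripts. Lyz2, which encodes lysozyme, had 19681 and 18773 CPM in STAT5fl/fl and 26086, 34431 and 27012 CPM in STAT5cKO libraries (log2 fold change 0.60, SE 0.12, adjusted p = 0.00291), and its call ended without mouse 112, 113 or 115 (adjusted p up to 0.0883). Apoe, a lipid carrier, had 7408 and 7694 against 5259, 4881 and 6117 CPM (log2 fold change -0.48, SE 0.12, adjusted p = 0.00976), a call that also ended in 4 of the 5 fits without 1 mouse (adjusted p up to 0.117). Calr, the chaperone calreticulin, was higher at a log2 fold change of 0.39 (SE 0.06, adjusted p = 0.000344) and was lost only without mouse 113 (adjusted p = 0.0153). Eef1a1, a translation elongation factor with many processed copies that may share reads, fell from 3626 and 3683 to 1950.0, 2580.2 and 1810.3 CPM (log2 fold change -0.79, SE 0.11, adjusted p = 9.88e-05). The mitochondrial transcripts mt-Nd1 and mt-Cytb were lower at a log2 fold change of -0.51 (SE 0.09, adjusted p = 0.000892) and -0.43 (SE 0.10, adjusted p = 0.00787). Mitochondrial counts as a whole made up 2.20% and 2.27% of the STAT5fl/fl and 1.65% to 2.0% of the STAT5cKO libraries, and the part of this share in the results was not tested. Calls of mt-Nd1 and mt-Cytb ended in fits without a mouse, with adjusted p-values up to 0.0231 and 0.0928. At the low end, Hp and Slpi, which encode haptoglobin and a leukocyte protease inhibitor, had the widest fold changes among the genes called higher with a mean of at least 2 CPM. Hp had 0.389 and 0.464 against 2.22, 22.3 and 4.12 CPM (log2 fold change 4.46, SE 1.07, adjusted p = 0.00912) and Slpi 0.195 and 0.567 against 2.17, 9.87 and 3.62 CPM (log2 fold change 3.77, SE 0.82, adjusted p = 0.00477). Without mouse 115 the log2 fold changes were 2.89 (adjusted p = 0.00297) and 2.93 (adjusted p = 0.0102), and without mouse 113 the adjusted p-values were 0.12 and 0.0659. With mouse as a random effect neither was called (adjusted p = 0.0803 and 0.027).

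Whether the genotype effect was particular to 4T1 CM was tested as an interaction in the same fit. Against the effect with DMEM, 165 of 13005 genes (1.27%) differed, and 95 of these had the more positive effect with 4T1 CM. With mouse as a block, 302 genes differed. Against rmGM-CSF, 191 genes (1.47%) differed, and 172 of these had the more positive effect with 4T1 CM. At an unadjusted p under 0.05 the numbers were 1865 and 1573. Bcl6 had the smallest adjusted p against DMEM. Rab7b, a small GTPase of late endosomes, was higher in STAT5cKO BMDMs with 4T1 CM (206 and 185 CPM against 342, 307 and 307 CPM) but lower with DMEM (log2 fold changes 0.70 and -0.32), an interaction of 1.03 (SE 0.10, adjusted p = 2.11e-05). Cpeb3, an RNA-binding regulator of translation, had 4.72 and 3.51 against 11.4, 13.5 and 11.5 CPM with 4T1 CM and a log2 fold change of -0.34 with DMEM and an interaction of 1.89 (SE 0.19, adjusted p = 4.67e-05). Fchsd2, an actin regulator of endocytosis, and Tes, a focal adhesion protein, were lower with 4T1 CM at log2 fold changes of -1.13 and -0.74 and not called with DMEM (0.15 and 0.24). Their interactions were -1.28 (SE 0.14, adjusted p = 6.8e-05) and -0.97 (SE 0.10, adjusted p = 6.8e-05).
Among the 172 genes with the more positive effect than under rmGM-CSF were several that were lower in STAT5cKO BMDMs in both media, and less so with 4T1 CM. Cish had a log2 fold change of -4.13 with 4T1 CM and -5.99 with rmGM-CSF, Socs2 -2.68 and -5.30, and Socs3 -0.57 and -1.96. Plekhf1, an adaptor of endosomes, had -1.06 and -3.95 with an interaction of 2.89 (SE 0.19, adjusted p = 9.48e-08), and Sav1, a scaffold of the Hippo pathway, -0.59 and -1.48 with an interaction of 0.89 (SE 0.08, adjusted p = 3.19e-06). Ccrl2 and Ifrd1 were raised with 4T1 CM and not called with rmGM-CSF (log2 fold changes 0.19 and 0.13), with interactions of 1.16 (SE 0.10, adjusted p = 3.72e-06) and 1.11 (SE 0.10, adjusted p = 3.72e-06). The few genes with a more negative effect under 4T1 CM included Bcl6, Fos (0.70 against 1.78), the Rab effector Micall2 (0.56 against 1.42) and Fgd3, an activator of Cdc42 (0.32 against 1.09). The genotype effect of 2510009E07Rik was -0.29 with 4T1 CM and 0.29 with rmGM-CSF with an interaction of -0.58 (SE 0.09, adjusted p = 0.000757). The effects of Micall2, Fgd3 and 2510009E07Rik with 4T1 CM were not called in every fit without 1 mouse (adjusted p up to 0.027, 0.1 and 0.0562). Without mouse 112, 113, 114, 115 or 116 in turn, 48, 24, 90, 90 and 99 genes differed from DMEM, and without mouse 112 or 113 91 and 79 differed from rmGM-CSF.

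**Figure D4:**
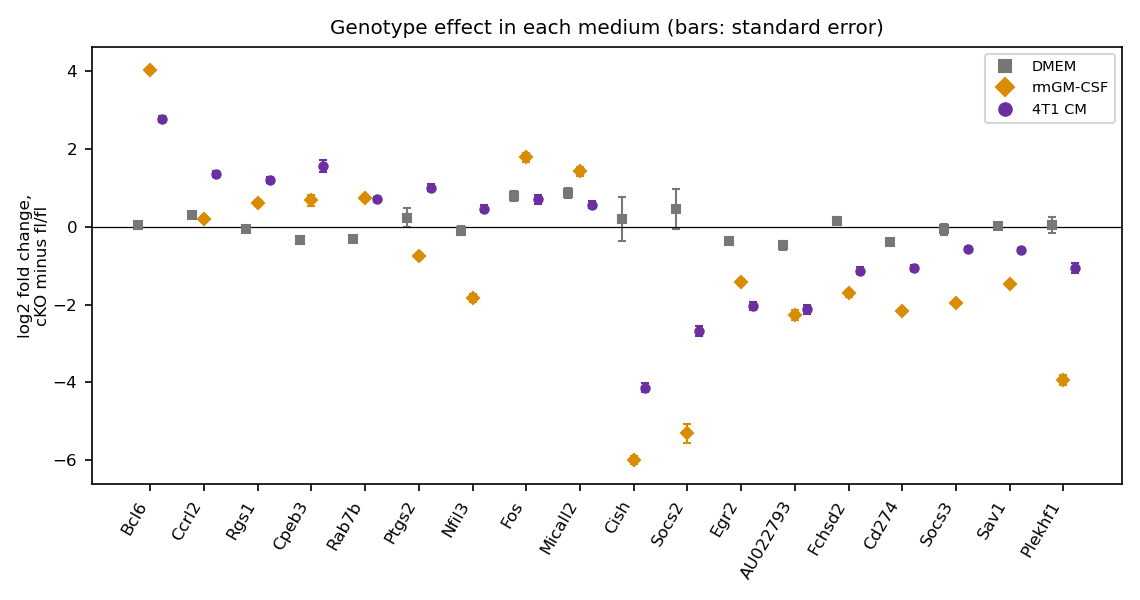
Log2 fold change between STAT5cKO and STAT5fl/fl with its standard error, for 18 genes in DMEM (grey squares), rmGM-CSF (orange diamonds) and 4T1 CM (purple circles). Bcl6 and Cish were not called with DMEM, and each lies further from 0 with rmGM-CSF than with 4T1 CM. Ptgs2 and Nfil3 lie above 0 with 4T1 CM and below 0 with rmGM-CSF.

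Of 47 tested genes within 1 Mb of Stat5a and Stat5b, 1 was called higher and 1 lower, and of 22 within 1 Mb of Csf1r 1 was called higher, where 7.7% of all tested genes were called.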

How the data were processed

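RNA-seq was done on 15 libraries of BMDMs from 5 mice in 3 media. Per the file headers and the methods, the authors trimmed paired reads (Trimmomatic 0.33), aligned them with HISAT2 2.1.0 and deposited raw counts per gene from featureCounts 1.6.2, strand-specific, on GRCm38. Uncertain alignments were dropped at counting, which can lower counts of near-identical genes. Groups were taken from the sample labels. The normalization, filter and threshold follow the study's methods, and edgeR 4.0.16 in R 4.3.3 was applied to the counts as deposited. Size factors were relative log expression, genes needed more than 1 CPM in at least 2 libraries, and a quasi-likelihood F test was fitted to the 6 groups of genotype and medium. Genes were called at a Benjamini-Hochberg adjusted p under 0.01 with no minimum fold. Normalized CPM are CPM on library sizes multiplied by the size factors, SD is between mice, and standard errors are the log2 fold change divided by the square root of F.

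Ratios of genes with few counts carry an exact binomial interval for counting error. The fit was tested on simulated data with 200 of 13005 genes changed. For the genotype effect with 4T1 CM 81.5% were recovered, 1.81% of calls were false and 0 genes were called when nothing changed. The simulated libraries of a mouse were not correlated, and genes of very few counts were not changed. The outcome therefore does not give the error rate of the real calls. Alternatives used TMM, other filters, DESeq2 1.42.0 and limma 3.58.1 (mouse as a random effect, correlation 0.068). Deviations of libraries of the same mouse correlated with a mean r of 0.142 over 6 pairs in STAT5fl/fl and 0.157 over 9 pairs in STAT5cKO BMDMs. Pairs of different mice gave -0.142 and -0.078. With 2 STAT5fl/fl mice the deviations mirror each other, so the pairs of 1 mouse repeat those of the other, and -0.142 was fixed by construction. Library totals, given with the results, bound the precision of low genes, and the p-values rest on 2 and 3 mice.

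Gene lists and the rule for naming genes were chosen with earlier results of these data known. Genes were named if they were among the 12 of smallest adjusted p in each direction, the 8 of largest fold change with a mean of at least 2 CPM, the 6 of largest difference in CPM or the 5 of smallest interaction p in each direction, or if they led one of the gene lists. Collagen genes and IFNγ genes were counted only, apart from chemokines and Socs1 that stand on other lists. A few genes are not reported here.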

Additional observations from a re-analysis of the deposited data

Results flagged for a closer look

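Among the genes named here, 72 interactions passed the test, out of 165 genes called against DMEM and 191 against rmGM-CSF in all. In these the genotype effect with 4T1 CM differed from that in another medium by edgeR's interaction test at an adjusted p under 0.01, with 38 of them against DMEM and 34 against rmGM-CSF. Values are the log2 fold change between STAT5cKO and STAT5fl/fl with 4T1 CM minus that in the other medium, and adjusted p-values ran from 2.3e-11 for Bcl6 against DMEM to 0.00969 for Egr3. All 72 were also called with mouse as a block, a setting that called more genes (302 and 277) and kept all 165 and 191 calls. Without mouse 114, 115 or 116 in turn, 85, 84 and 89 of the 165 were kept. Of the 191, 131, 127 and 130 were kept. The 72 were not followed one by one in these fits.

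Against DMEM, regulators of transcription or translation with the more positive effect were Bcl6 at 2.73, Fosb at 1.97, Egr3 at 1.57, Mxd1 at 1.17, Mnt at 0.96, Ifrd1 at 0.90, Cpeb3 at 1.89 and Mxi1 at 0.63. Signaling, adhesion and transport genes with a more positive effect were Rgs1 at 1.26, Ccrl2 at 1.06, Nfkbie at 0.59, Tgfb3 at 1.57, Thbs1 at 1.15, Bcl2l11 at 0.78, Rab7b at 1.03, Sntb2 at 0.94 and Slc45a4 at 0.89. The effect was more negative with 4T1 CM for the feedback genes Cish at -4.34 and Socs2 at -3.13, for the receptors Csf2rb at -0.55, Tlr4 at -0.67, C3ar1 at -0.47 and Ptger4 at -0.75, and for Egr2 at -1.66 and Rara at -0.57. It was also more negative for the survival genes Bcl2a1b at -1.53 and Bcl2a1d at -1.06, for Pgf at -3.79 and Cd274 at -0.66, and for Enah at -3.84, Eps8 at -1.32, Fchsd2 at -1.28, Tes at -0.97 and Eml4 at -0.76. The others were AU022793 at -1.65, Lrp12 at -0.98, Sav1 at -0.61 and Emp1 at -0.58.

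Against rmGM-CSF, the effect was more positive for Cish at 1.86, Socs2 at 2.62, Socs3 at 1.39 and Csf2rb at 0.60, and for the chemokines Ccl7 at 2.79, Ccl2 at 2.04 and Ccl6 at 1.02. Among transcription factors and their partners it was more positive for Nfil3 at 2.30, Nr4a3 at 2.08, Mxd1 at 1.07, Mxi1 at 0.56, Ifrd1 at 1.11, Bcl3 at 0.92, Rara at 0.89, Junb at 0.64 and Per1 at 0.93. It was more positive as well for Plekhf1 at 2.89, Ptgs2 at 1.76, Scimp at 1.82, Eps8 at 1.49, Ccrl2 at 1.16, Cd274 at 1.11, Pvr at 1.03, Nfkbie at 0.94, Sav1 at 0.89, Zfp36l1 at 0.72, Clec7a at 0.70, Slc45a4 at 0.61 and Rgs1 at 0.60. It was more negative for Bcl6 at -1.25, Fos at -1.08, Micall2 at -0.86, Fgd3 at -0.78 and 2510009E07Rik at -0.58.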

How the results depend on the processing

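Of the 218 called genes that were leading or listed, 0 changed direction under any alternative run, namely another normalization, another filter, DESeq2, the earlier form of the quasi-likelihood test (added after seeing the data), mouse as a random effect, the 5 libraries alone and leaving out each mouse. The libraries of the genotypes did not overlap for any called gene. A change of direction was therefore hardly possible in these runs, and the 0 is no test of robustness. DESeq2 lost 10 of the 218 calls, TMM normalization 2, filterByExpr 3, no filter 5 and the earlier test 10. Far more were lost by the fit of the 5 libraries with 4T1 CM alone, 118 of 217. Among these were Fos, Tlr4, Mdm2 and Eef1a1, which had kept their calls in each fit without 1 mouse. Leaving out mouse 114, 115 or 116 lost 37, 49 and 39 of the 218. The 5 libraries with 4T1 CM alone gave 123 genes higher and 157 lower against 537 and 464, having few residual degrees of freedom, and all 123 and 155 of the 157 were also called with all libraries. At an adjusted p under 0.05 there were 1086 higher and 871 lower. Leaving out 1 mouse gave 152 to 480 genes higher, 182 to 355 lower, 24 to 99 that differed from DMEM and 79 to 143 that differed from rmGM-CSF, the lowest always without mouse 113. DESeq2 called 363 and 308 genes for these differences against 165 and 191, and the cause was not tested. With only the 10 libraries compared, 79 differed from DMEM.

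The replicate numbers are mice, each used in all media, and a replicate block on mouse raised the genes that differed from DMEM to 302 and those that differed from rmGM-CSF to 277. A block cannot be fitted to the genotype effect within a medium, since each mouse has 1 genotype. With mouse as a random effect in its place 520 genes were higher and 474 lower, and 13 of the 218 calls were lost, among them Hp, Slpi, Gm1821, Ccl3 and Gss.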
